A study of Homo sapiens with 12 samples.

Results

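CDK inhibitors are small proteins that bind the cyclin-dependent kinases (CDKs) and hold back the cell cycle. They form the Cip/Kip family, with the genes CDKN1A, CDKN1B and CDKN1C, and the INK4 family, with CDKN2A, CDKN2B, CDKN2C and CDKN2D. Their transcripts were measured on an Illumina bead array in PANC-1 cells. This human line, derived from an adenocarcinoma of the pancreatic duct, stably carried a form of E47 made active by tamoxifen. E47, a product of the TCF3 gene, is a transcription factor of the basic helix-loop-helix class. The 12 arrays held total RNA of 4 untreated samples, 4 samples given 1 µM tamoxifen and 4 samples given 4 µM tamoxifen, both doses for 48 h in RPMI medium with serum. All 12 came from the line with the inducible E47, so tamoxifen itself and E47 activity cannot be told apart here, and neither a vehicle nor a time is recorded for the untreated samples. The sources used here give neither the promoter that drives the transgene nor whether the line is 1 clone. Members were the probes whose annotated symbol is 1 of the 7 gene names. This gave 13 of the 47323 probes on the array, for 6 of the 7 genes, among 20046 named genes with a probe. CDKN2C had no probe under its name in the annotation used and was not analysed here.

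Cip/Kip proteins bind complexes of a cyclin and a CDK, chiefly those of CDK2 with cyclin E or A, whereas INK4 proteins bind CDK4 and CDK6 alone and keep D-type cyclins from joining them. Either way the retinoblastoma protein stays less phosphorylated and keeps holding the E2F factors that drive genes of DNA replication. E proteins such as E47 bind DNA as dimers at E-boxes, short motifs written CANNTG, and CDKN1A is known as a gene that E proteins can activate as well as a target of p53. CDKN2A is known to be deleted in PANC-1.

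The deposited intensities were quantile-normalized, so each fold change is relative to a distribution that is the same on every array and would miss a change common to all genes. Intensities over 123.5 were taken as above background, and a probe was kept if 4 or more of the 12 arrays passed that level. The limma fit covered 19744 features, of which 12971 were named genes, and a feature was called at an adjusted p under 0.05. Of the called features, 48.1% were higher at 1 µM and 50.4% at 4 µM. These shares became 78.6% and 73% when arrays were centred on 10 housekeeping genes, which moved all fold changes by 0.21 at 1 µM and 0.17 at 4 µM on the log2 scale. Before centring, 1 of these 10 genes was itself called higher and 4 lower at 1 µM, and 2 higher and 3 lower at 4 µM. The centring thus rested in part on genes that were themselves called. Between the doses, 50.1% of the called features were higher at 4 µM, and 33.8% under that centring.

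The labels leave unsaid whether the 4 samples in each group were grown as separate cultures, and p-values then reflect only how far these samples scatter, which may be technical. No 2 arrays held identical values. The array's TCF3 probe, which names the gene of E47, was lower in treated cells, by a log2 fold change of -0.79 ± 0.12 at 1 µM (adjusted p = 1.76e-06) and -1.44 ± 0.12 at 4 µM (adjusted p = 3.8e-12). The sources used here do not say whether that probe reads the introduced transcript. All 6 ductal epithelial markers (KRT7, KRT8, KRT18, KRT19, EPCAM and SOX9) lay above background on all 12 arrays, and their summed intensity was 39360 to 48970 in untreated cells, 68640 to 80820 at 1 µM and 64100 to 77600 at 4 µM. Of the markers of other cells, the leukocyte genes PTPRC and CD3E, the endothelial genes VWF and CDH5 and the fibroblast gene PDGFRB lay below background on every array. The summed intensity of 6 fibroblast markers was 651.4 to 720.8 in untreated cells, 927.4 to 1052 at 1 µM and 1184 to 1287 at 4 µM, and that of 6 acinar markers was 548.2 to 563.4, 912.8 to 1003 and 1229 to 1357 in the same order of groups. For 7 leukocyte and endothelial markers, which include CD68 and CD14 above background on all arrays, it was 4780 to 4979 in untreated cells, 2111 to 2772 at 1 µM and 2248 to 2576 at 4 µM, and for 5 islet markers 567.2 to 594.4, 722.5 to 812.8 and 778.5 to 813.3. The lists did not move as a whole. PRSS1 and CELA3A of the acinar markers, COL1A1, COL3A1 and LUM of the fibroblast markers and SYP of the islet markers were called higher at both doses. The other tested markers of these lists did not pass. CD68 made up most of the leukocyte and endothelial sum, with a mean of 4080 in untreated cells and 1745 at 4 µM. Whether these markers bear on the results that follow was not tested.

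Of the 13 CDK inhibitor probes, 7 passed the detection filter, and they stood for 5 genes. CDKN1C, CDKN1A and CDKN1B, the whole Cip/Kip family, were called higher at both doses, CDKN2D was called lower at both, and CDKN2B did not pass. So 3 of the 5 genes were higher at each dose, where 18.1% of all features were called higher at 1 µM and 19.9% at 4 µM, and 1 of 5 was lower, where 19.5% of all features were called lower at 1 µM and 19.5% at 4 µM. The median log2 fold change of these 5 genes was 1.73 at 1 µM and 2.05 at 4 µM, beside -0.03 over all features at either dose. The 2 dose comparisons share the untreated arrays. The remaining 6 probes, which include all 3 of CDKN2A, were too close to background to enter the fit.

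The stretches before the annotated starts of CDKN1A and CDKN1B, which rose, and of CDKN2D, which fell, are shown to set the E-box letters of genes that moved in opposite directions side by side. The promoter of CDKN1C was not analysed here. Each is the 250 bases before the start given in the RefSeq promoter table (build GRCh38.p14), written 5′ to 3′ on the strand of the gene, with E-boxes in capitals. They lie at chr6:36678464-36678713 on the plus strand, chr12:12717118-12717367 on the plus strand and chr19:10568980-10569229 on the minus strand.
CDKN1A: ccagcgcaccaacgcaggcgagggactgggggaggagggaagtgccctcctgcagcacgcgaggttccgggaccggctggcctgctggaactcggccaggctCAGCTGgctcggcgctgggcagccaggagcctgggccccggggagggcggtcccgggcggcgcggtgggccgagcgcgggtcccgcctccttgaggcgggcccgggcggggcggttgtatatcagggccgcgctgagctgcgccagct
CDKN1B: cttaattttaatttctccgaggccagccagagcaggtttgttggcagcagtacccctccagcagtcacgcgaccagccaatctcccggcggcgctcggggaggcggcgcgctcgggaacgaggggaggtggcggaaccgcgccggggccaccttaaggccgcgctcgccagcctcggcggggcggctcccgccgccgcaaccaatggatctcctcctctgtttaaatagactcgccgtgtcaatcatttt
CDKN2D: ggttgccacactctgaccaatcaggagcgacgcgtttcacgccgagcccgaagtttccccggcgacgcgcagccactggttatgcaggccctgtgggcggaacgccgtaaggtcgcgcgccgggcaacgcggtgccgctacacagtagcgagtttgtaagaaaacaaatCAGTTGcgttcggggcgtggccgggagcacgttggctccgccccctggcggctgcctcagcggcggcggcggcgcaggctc
CDKN1A held 1 E-box, CAGCTG, which begins 148 bases before the start. CDKN1B held none, and CDKN2D held 1, CAGTTG, which begins 81 bases before the start. The search read both strands for CANNTG, which is its own reverse complement in the fixed letters. Of 35116 windows of this length in the table, 61.8% held at least 1 CANNTG and 14% at least 1 CAGCTG. A match is a description of letters and not a binding site.

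**Figure D1:**
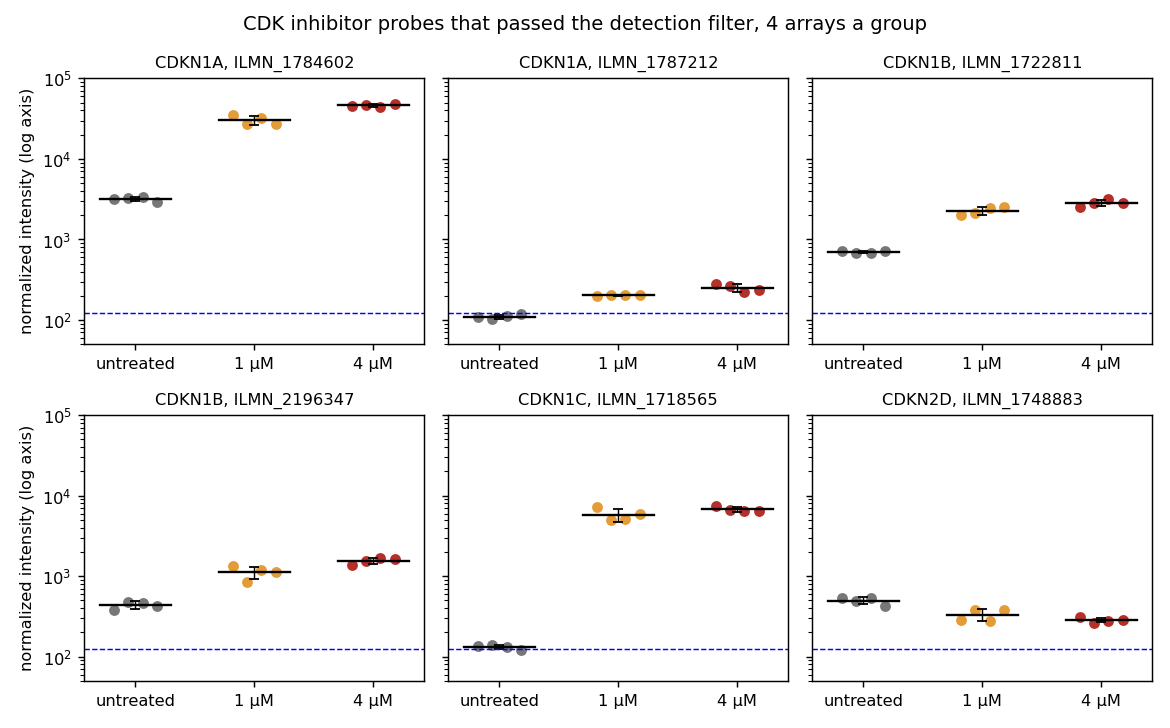
Normalized intensity (log axis) of 6 of the 7 CDK inhibitor probes that passed the detection filter, on each array in untreated cells and at 1 µM and 4 µM tamoxifen. Points are arrays, horizontal lines the mean of 4 arrays with its SD, and the dashed line is the background level of 123.5. The probes of CDKN1A, CDKN1B and CDKN1C lie higher in every treated array than in any untreated one, and the CDKN2D probe lies lower.

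CDKN1C encodes p57, a Cip/Kip inhibitor whose gene is imprinted and which is known for arresting cells as they differentiate. Its single probe (ILMN_1718565) read 137.0, 139.4, 130.3 and 122.0 in untreated cells, 7228, 4941, 5176 and 5854 at 1 µM, and 7437, 6712, 6362 and 6426 at 4 µM. The untreated arrays lay at the edge of background, with 3 of 4 above it, and all 8 treated arrays lay far above them without overlap. CDKN1C had the largest rise of all 19744 features at both doses. Its log2 fold change was 5.58 ± 0.12 at 1 µM (48-fold, adjusted p = 4.03e-28) and 5.81 ± 0.12 at 4 µM (56.2-fold, adjusted p = 5.34e-29; ± SE, 4 arrays a group). The size of these folds rests on an untreated signal near background. With 3 untreated arrays above background, the probe passed the detection filter only with its treated arrays. These p-values and ranks are thus no separate support for a rise. Over the alternative settings the log2 fold change ran from 5.44 to 6.06 at 1 µM and from 5.67 to 6.29 at 4 µM. The gene lies at chr11:2883218-2885775.

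CDKN1A encodes p21, the inhibitor best known as the effector of p53 in cell cycle arrest. Its brighter probe (ILMN_1784602) read 3210, 3282, 3410 and 2948 in untreated cells, 35110, 26860, 31855 and 27060 at 1 µM, and 46070, 46405, 43997 and 48485 at 4 µM. The 3 groups did not overlap, and the order of the groups followed the dose. The log2 fold change was 3.23 ± 0.11 at 1 µM (9.39-fold, adjusted p = 1.31e-22), which ranked 42 among the rises of all features. At 4 µM it was 3.85 ± 0.11 (14.5-fold, adjusted p = 5.13e-25), which ranked 31. The gene lies at chr6:36676463-36687332, and the stretch shown above falls inside this span, which begins upstream of the start in the promoter table.

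The bright CDKN1A probe ended near the top of the scale. It stood at 4.63 to 5.36% of its array's highest intensity in untreated cells, at 42.2 to 55.2% at 1 µM and at 69.2 to 76.2% at 4 µM. On each 4 µM array only 10 to 22 of all probes were brighter, on 1 µM arrays 70 to 144, and on untreated arrays 2037 to 2344. Whether this end of the scale compressed the dose step was not tested.

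A second CDKN1A probe (ILMN_1787212) was also higher at both doses. It read 107.8, 102.3, 110.5 and 117.3 in untreated cells, 198.5, 202.8, 204.3 and 202.5 at 1 µM, and 283.5, 262.0, 219.7 and 237.7 at 4 µM. Every untreated array lay below background and every treated array above it, and the 1 µM and 4 µM arrays did not overlap. Against the background level it was at least 1.71-fold higher at 1 µM (log2 fold change 0.97 ± 0.11, adjusted p = 4.61e-09) and at least 2.14-fold higher at 4 µM (1.29 ± 0.11, adjusted p = 4.43e-12). This probe passed the detection filter through its treated arrays alone, so these p-values are no separate support for a rise. Set against the bright probe, the log2 fold change of the second minus the first was -2.26 at 1 µM and -2.56 at 4 µM. The exact permutation p was 0.0286 at either dose, the smallest possible. With untreated arrays below background the second probe's fold is a bound, so the size of this gap is not known. The files do not give which transcript each probe reads.

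CDKN1B encodes p27, which binds cyclin E and CDK2 and is known to hold cells in quiescence. Its probe ILMN_1722811 read 716.0, 686.0, 672.9 and 712.8 in untreated cells, 2018, 2113, 2493 and 2521 at 1 µM, and 2529, 2853, 3154 and 2868 at 4 µM. The 3 groups did not overlap, though the highest 1 µM array and the lowest 4 µM array were almost level. The log2 fold change was 1.73 ± 0.11 at 1 µM (3.31-fold, adjusted p = 3.93e-15, rank 262 among the rises) and 2.05 ± 0.11 at 4 µM (4.14-fold, adjusted p = 2.46e-17, rank 221). The gene lies at chr12:12717368-12722369, directly after the stretch shown above.

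The second CDKN1B probe (ILMN_2196347) read 378.6, 482.1, 467.3 and 424.5 in untreated cells, 1321, 839.1, 1180 and 1113 at 1 µM, and 1367, 1527, 1687 and 1649 at 4 µM. Its groups also did not overlap, and the array with 839.1 stood lowest at 1 µM. Its log2 fold change was 1.36 ± 0.13 at 1 µM (adjusted p = 6.59e-11) and 1.86 ± 0.13 at 4 µM (adjusted p = 1.79e-14). No difference beyond the spread was found between the fold changes of the 2 CDKN1B probes, at -0.37 for the second minus the first at 1 µM (two-sided exact permutation p = 0.114) and -0.19 at 4 µM (exact permutation p = 0.171), where 4 against 4 arrays allow no p below 0.0286.

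**Figure D2:**
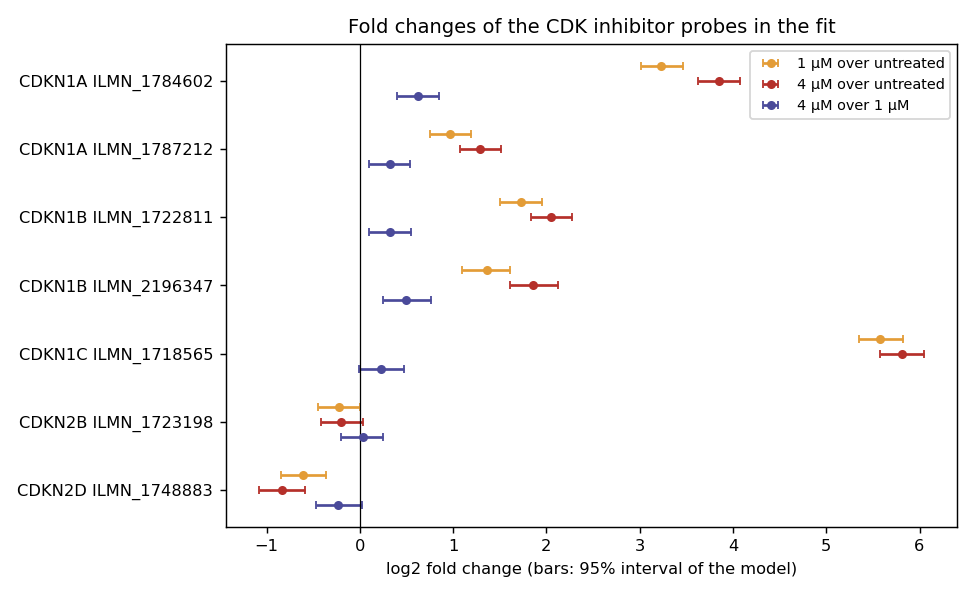
Log2 fold change of the 7 detected CDK inhibitor probes for 1 µM over untreated cells, 4 µM over untreated cells and 4 µM over 1 µM. Points are the limma estimates and bars their 95% intervals. The Cip/Kip probes lie right of 0 at both doses, with CDKN1C farthest out at 5.58 and 5.81, CDKN2B spans or touches 0, and CDKN2D lies left of 0.

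The step between the doses was small beside the rise over untreated cells. Of the 5 genes tested, CDKN1A alone was called between the doses, with a log2 fold change of 0.62 ± 0.11 for 4 µM over 1 µM (1.54-fold, adjusted p = 0.000214), and the median of the 5 was 0.23, beside 0 over all features. Over all features, 4.36% were called higher and 4.33% lower at 4 µM than at 1 µM. At 1 µM its bright probe had reached 83.9% of the log2 change seen at 4 µM. CDKN1C had reached 96.1%, and its step of 0.23 ± 0.12 did not pass (95% interval -0.01 to 0.47, adjusted p = 0.253), with overlapping groups.

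For CDKN1B the step was 0.32 ± 0.11 (95% interval 0.10 to 0.55), and its adjusted p of 0.0602 lay close to the threshold. Its adjusted p ran from 0.0356 to 0.199 over the alternative settings and the fits without 1 array, so the call depended on the setting, and it passed, for example, when only probes above background on all 12 arrays were kept (0.0429). The second CDKN1B probe stepped up by 0.50 ± 0.13 (adjusted p = 0.00847), and the second CDKN1A probe by 0.32 ± 0.11 (adjusted p = 0.0571).

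The dose steps of the 3 Cip/Kip genes were compared in pairs. The step of CDKN1A exceeded that of CDKN1C by 0.39 on the log2 scale (exact permutation p = 0.0286, the smallest possible, and 0.0858 after adjustment over 3 pairs). It exceeded that of CDKN1B by 0.30 (exact permutation p = 0.114, adjusted 0.171), and the steps of CDKN1B and CDKN1C differed by 0.09 (exact permutation p = 0.629). No pair passed after adjustment. A single pair, even at the smallest possible p, could not pass over 3 pairs, so these tests do not decide whether the steps differ.

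CDKN2D encodes p19, an INK4 inhibitor of CDK4 and CDK6, and it was the member that fell. Its brighter probe (ILMN_1748883) read 532.1, 486.0, 540.9 and 428.8 in untreated cells, 289.1, 383.9, 277.6 and 381.4 at 1 µM, and 307.2, 265.1, 276.3 and 286.5 at 4 µM. Every treated array lay below every untreated one. The 1 µM arrays formed a lower and a higher pair, and the lower pair lay among the 4 µM arrays. The log2 fold change was -0.61 ± 0.12 at 1 µM (1.52-fold lower, adjusted p = 0.000102) and -0.83 ± 0.12 at 4 µM (1.78-fold lower, adjusted p = 5.69e-07). It ranked 1349 and 940 among the falls of all features. The step between the doses was -0.23 ± 0.12 and did not pass (95% interval -0.47 to 0.02, adjusted p = 0.286). The fall was smaller under the centring on housekeeping genes, at -0.39 for 1 µM (adjusted p = 0.00995) and -0.66 for 4 µM (adjusted p = 3.41e-05). The gene lies at chr19:10566460-10568979 on the minus strand.

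CDKN2B encodes p15, the INK4 inhibitor known as a target of TGF-beta signalling. Its probe ILMN_1723198 read 135.1, 126.1, 127.4 and 147.4 in untreated cells, 103.8, 131.2, 115.6 and 117.0 at 1 µM, and 109.2, 114.0, 126.4 and 124.7 at 4 µM. All 4 untreated arrays lay above background, with 1 of 4 at 1 µM and 2 of 4 at 4 µM, and both doses overlapped the untreated group. The log2 fold change was -0.22 ± 0.11 at 1 µM (95% interval -0.45 to 0, adjusted p = 0.118) and -0.20 ± 0.11 at 4 µM (95% interval -0.42 to 0.03, adjusted p = 0.167). Neither passed, and at a signal this close to background a change of this size was not resolved. The other probes of CDKN2B ran from 91.2 to 120.9 (ILMN_1670111) and from 82.16 to 119.1 (ILMN_2376723) over the 12 arrays and were never above background.

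CDKN2A encodes p16, the founding INK4 protein, and from another reading frame ARF, which stabilises p53. None of its 3 probes passed the filter. ILMN_1717714 ran from 87.45 to 130.2 with a median of 109.7, ILMN_1757255 from 69.86 to 105.4 with a median of 85.01, and ILMN_1744295 from 66.3 to 101.1 with a median of 83.26. A single value among them, 130.2 on 1 µM array 3, lay above background. The second CDKN2D probe (ILMN_1740597) ran from 78.34 to 96.22. These 6 undetected probes gave 18 comparisons between groups by exact permutation tests, in which the groups overlapped each time. None had a raw p under 0.05, and the lowest adjusted p was 0.386. A level was therefore not measurable for CDKN2A at this background, whose gene lies at chr9:21967752-21995324 next to CDKN2B at chr9:22002903-22009313.

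**Figure D3:**
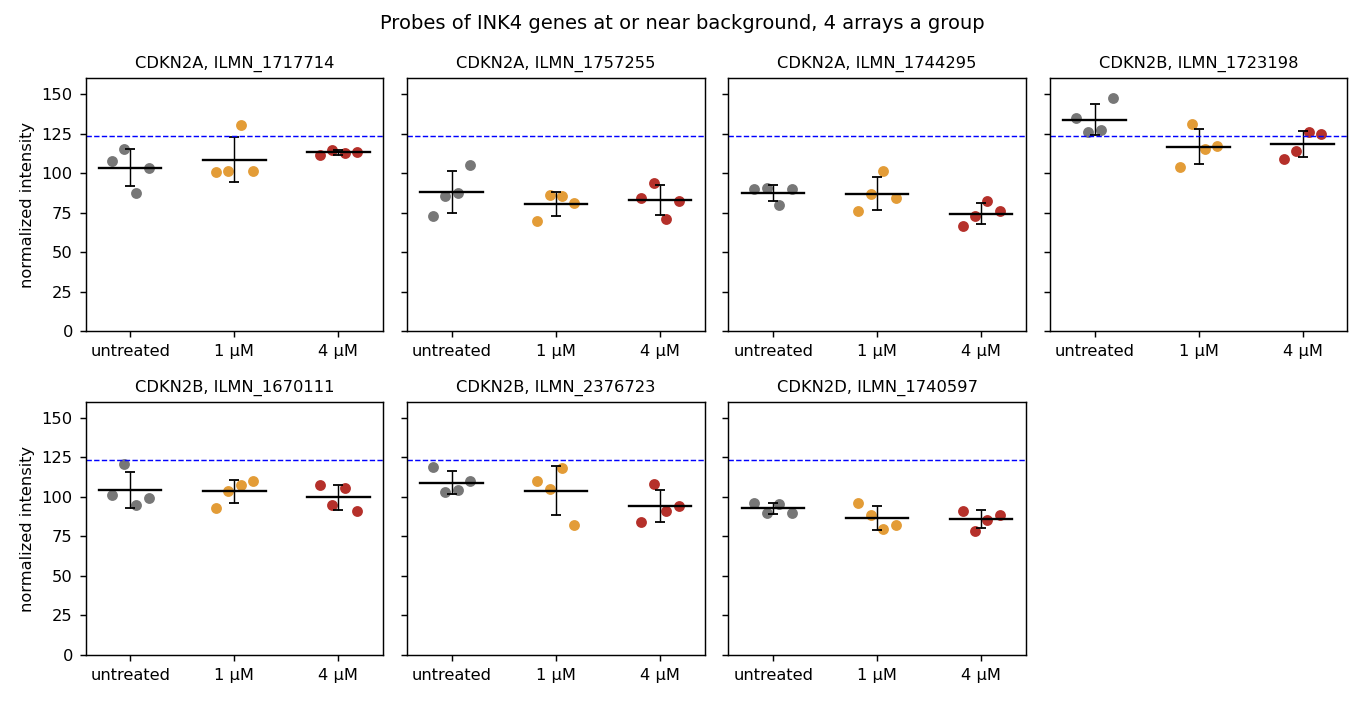
Normalized intensity (linear axis) of the 7 INK4 probes at or near background, on each array in untreated cells and at 1 µM and 4 µM tamoxifen. Points are arrays, lines the mean of 4 arrays with its SD, and the dashed line is the background level of 123.5. Among the CDKN2A probes 1 point lies above the line, and the CDKN2B probe ILMN_1723198 straddles it.

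The promoter table held starts for CDKN2A, CDKN2B and CDKN2C too. The E-box CAGCTG of the CDKN1A stretch was also found before CDKN2B, beginning 36 bases before its start. The signal of CDKN2B was too close to background to resolve a change. Neither start of CDKN2A had an E-box in the 250 bases, and the 3 starts of CDKN2C had 1, 1 and 2. When the 50 bases from the start on were read as well, CDKN1A held 3 E-boxes, all CAGCTG, and CDKN1B still held none. At least 3 were found in 15.3% of all 35116 windows of 300 bases.

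Letters of the GC box, GGGCGG or its reverse complement, to which factors of the Sp family bind, were counted in the same way. The CDKN1A stretch held 4, beginning 104, 94, 45 and 40 bases before the start, the last pair sharing 1 base, and 7.63% of windows held at least 4. CDKN1B held 1 and CDKN2D held 2, and at least 1 was found in 42.6% of windows. These stretches were rich in G and C, at 76.4% for CDKN1A, 64.4% for CDKN1B and 67.6% for CDKN2D, against a median of 58% over all windows.

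**Figure D4:**
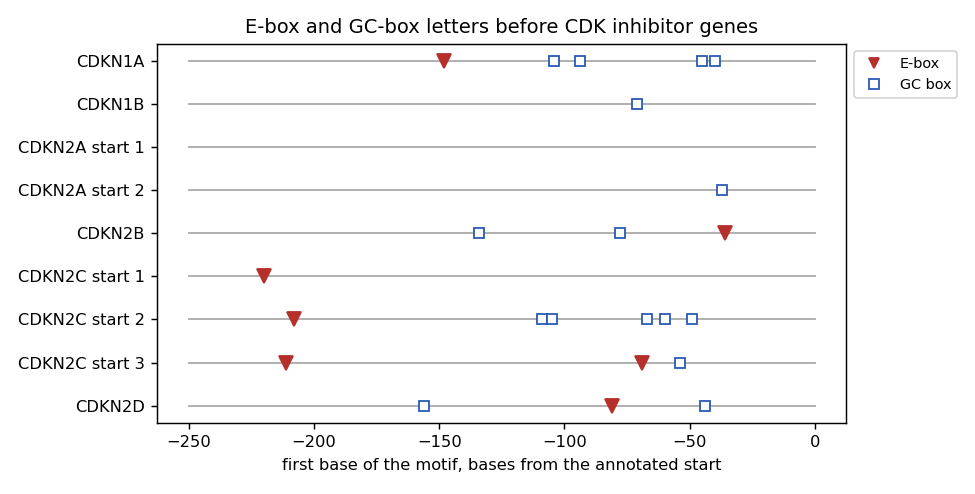
Position of E-box letters (CANNTG, triangles) and GC-box letters (GGGCGG or its reverse complement, squares) in the 250 bases before each start that the RefSeq promoter table gives for CDKN1A, CDKN1B, CDKN2A, CDKN2B, CDKN2C and CDKN2D. The horizontal axis is the distance of a motif's first base from the start, in bases, and each line is 1 start. CDKN1A has 1 E-box and 4 GC boxes, CDKN1B no E-box, and CDKN2D 1 E-box.

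Many genes shared the array-to-array pattern of the Cip/Kip genes. Over the 12 arrays, 200 named genes had a Pearson correlation above 0.98 with CDKN1A, 208 with CDKN1C and 97 with CDKN1B, but none with CDKN2D. All such values are dominated by the gap between untreated and treated arrays and carry no p. Closest to CDKN1A were FGFR3, a receptor tyrosine kinase (r = 0.9989), C11orf96 (0.9982) and RAET1G, a ligand of the NKG2D receptor (0.9978). Closest to CDKN1C were CTSV, a lysosomal cathepsin (0.9976), LOXL4, of the lysyl oxidase family (0.9973), and CABP7, a calcium-binding protein (0.9971). Closest to CDKN1B were ASIC1, an acid-sensing ion channel (0.9932), TIPARP, an ADP-ribosyltransferase (0.9926), and MAP1LC3C, an autophagy protein (0.9925).

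The genes most alike to CDKN2D fell with it, namely TNNT1, a troponin of slow muscle (r = 0.9728, log2 fold change -0.53 ± 0.11 at 4 µM), OARD1, an ADP-ribose hydrolase (r = 0.9696, -1.01 ± 0.12), and LOC728554 (r = 0.9665, -1.02 ± 0.11). The genes most alike to the Cip/Kip genes rose at 4 µM by 1.70 ± 0.11 (MAP1LC3C) to 5.24 ± 0.12 (C11orf96). All were chosen by their correlation with a member over these arrays, so their directions follow from that choice.

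The nearest 2 protein-coding genes on either side of each member were read from the RefSeq gene table, which gave 24 neighbours, 16 of them tested. At 1 µM 8 were called higher and 3 lower (median log2 fold change 0.28), and at 4 µM 8 were higher and 4 lower (median 0.36). Among all features, 18.1% were called higher and 19.5% lower at 1 µM, and 19.9% and 19.5% at 4 µM (median -0.03 at either dose). Beside CDKN1C, PHLDA2, an imprinted gene of placental growth, rose by 1.39 ± 0.12 at 1 µM and 1.88 ± 0.12 at 4 µM, and SLC67A1 (SLC22A18 in older annotation), a transporter gene of the same imprinted region, by 0.96 ± 0.14 and 0.91 ± 0.14. KCNQ1, on the other side of CDKN1C, stayed below background on every array.

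The neighbours of the other members were read in the same way. Beside CDKN1B, APOLD1 rose by 1.29 ± 0.11 at 1 µM and 1.20 ± 0.11 at 4 µM, CREBL2 did not pass at 1 µM (0.13 ± 0.12) and rose by 0.52 ± 0.12 at 4 µM (adjusted p = 0.00066), and GPR19 and DDX47 did not pass at either dose. Beside CDKN1A, the kinase gene STK38 rose by 1.20 ± 0.12 and 0.87 ± 0.12, and the splicing factor gene SRSF3 stood at -0.70 ± 0.12 and -0.59 ± 0.12. Beside CDKN2A, MTAP, an enzyme of methionine salvage, read 115.8 to 144.2 in untreated cells, 108.9 to 143.4 at 1 µM and 122.4 to 151.6 at 4 µM and was not called. DMRTA1, beyond CDKN2B, rose by 0.67 ± 0.11 and 0.79 ± 0.11. Beside CDKN2D, AP1M2 fell at both doses (-0.45 ± 0.11 and -0.57 ± 0.11), as CDKN2D did, and SLC44A2 rose by 0.63 ± 0.11 and 0.81 ± 0.11. On its other side KRI1 was called at 4 µM only (-0.35 ± 0.11) and ATG4D at 1 µM only (0.36 ± 0.12), and neither passed for 4 µM over 1 µM (adjusted p = 0.495 for KRI1 and 0.0643 for ATG4D). Beside CDKN2C, FAF1 fell (-0.37 ± 0.11 and -0.47 ± 0.11) and RNF11 rose by 0.49 ± 0.12 and 0.88 ± 0.12. The 8 untested neighbours, KCNQ1 among them, had no probe or did not pass the detection filter.

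Among the targets of the inhibitors, 14 of 16 listed CDKs and cyclins were tested. At 1 µM 2 were higher, 5 lower and 7 did not pass (median -0.22), beside 18.1% higher and 19.5% lower over all features. At 4 µM 2 were higher, 6 lower and 6 did not pass (median -0.09), beside 19.9% and 19.5% over all features. The 2 higher genes at both doses were D-type cyclins. CCND1, the gene of cyclin D1, named after its values were seen, stood at 0.87 ± 0.16 at 1 µM (adjusted p = 3.48e-05) and 0.90 ± 0.16 at 4 µM (adjusted p = 1.64e-05). CCND2, the gene of cyclin D2, lay below background on all untreated arrays and was at least 11.1-fold higher at 1 µM and at least 9.52-fold higher at 4 µM. The cyclins of later phases fell at 4 µM, with log2 fold changes of -2.53 ± 0.12 for CCNA2 (adjusted p = 6.83e-19), -2.28 ± 0.12 for CCNB2 (3.6e-17) and -1.98 ± 0.12 for CCNB1 (2.48e-16). CDK1, the kinase they join, stood at -1.88 ± 0.12. CDK2 did not pass at 1 µM (-0.23 ± 0.12, adjusted p = 0.127) and fell at 4 µM (-0.58 ± 0.12, adjusted p = 0.000126). CCNE1, the gene of cyclin E1, did not pass at either dose (0.04 ± 0.11 and 0.03 ± 0.11). CDK6 did not pass at 4 µM (0.30 ± 0.12, adjusted p = 0.0527). CDK4 fell at 1 µM (-0.55 ± 0.11, adjusted p = 8.84e-05) and at 4 µM (-0.30 ± 0.11, adjusted p = 0.0237), the last call being lost with arrays centred on housekeeping genes. Under that centring 4 were higher and 5 lower at 1 µM (median 0), and 3 were higher and 5 lower at 4 µM (median 0.08), so the sign of the median at 4 µM turned.

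All 13 listed genes of CDK inhibitor turnover were tested. Most act in the ubiquitin ligases that mark Cip/Kip proteins for destruction, SCF with SKP2 and CRL4 with DTL. At each dose 1 was higher, 6 lower and 6 did not pass, with medians of -0.12 at 1 µM and -0.15 at 4 µM. Among all features, 18.1% were called higher at 1 µM and 19.9% at 4 µM, and 19.5% lower at either dose. At 4 µM CDC20, an activator of the anaphase-promoting complex that is itself a mitotic gene, fell (log2 fold change -2.38 ± 0.12, adjusted p = 7.98e-18). PCNA, the clamp on which DTL meets its substrates, also fell (-1.71 ± 0.13), as did DTL (-1.53 ± 0.13) and CKS1B, the cofactor of SKP2 for p27 (-1.43 ± 0.11). The 1 that rose was DDB1, the adaptor of CRL4, at 0.28 ± 0.10 for 1 µM and 0.35 ± 0.10 for 4 µM. SKP2, named after its values were seen, stood at -0.61 ± 0.11 and -0.39 ± 0.11, and its call at 4 µM was lost with the housekeeping centring. Under that centring 2 were higher and 6 lower at 1 µM (median 0.10), and 2 were higher and 5 lower at 4 µM (median 0.02), so both medians turned positive.

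Of 21 listed transcriptional regulators of CDK inhibitor genes, 19 were tested. At 1 µM 9 were higher, 3 lower and 7 did not pass (median 0.23), beside 18.1% higher and 19.5% lower over all features. At 4 µM 9 were higher, 6 lower and 4 did not pass (median 0.26), beside 19.9% and 19.5% over all features. The ID genes, whose proteins pair with E proteins and keep them off DNA, were among the risers, with ID2 at 3.63 ± 0.11 (adjusted p = 4.78e-24), ID3 at 3.37 ± 0.11 (5.78e-23) and ID1 at 1.54 ± 0.12 (2.22e-13) at 4 µM. TCF3 had the largest fall of the list, as given above. With arrays centred on housekeeping genes 12 were higher and 3 lower at 1 µM (median 0.45), and 10 were higher and 4 lower at 4 µM (median 0.43).

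Downstream of the inhibitors, all 12 listed pocket proteins and E2F factors were tested. At 1 µM 6 were lower and 6 did not pass (median -0.27), beside 18.1% higher and 19.5% lower over all features. At 4 µM 7 were lower and 5 did not pass (median -0.31), beside 19.9% higher and 19.5% lower over all features. At 4 µM E2F7 (-1.42 ± 0.13, adjusted p = 1.87e-11), E2F2 (-1.01 ± 0.12) and RBL1, the gene of the pocket protein p107 (-0.84 ± 0.11), were lower. E2F8 was below background on each 4 µM array and at least 1.65-fold lower. RB1 itself did not pass (-0.15 ± 0.11 at 1 µM and -0.12 ± 0.11 at 4 µM). Under the housekeeping centring 1 was higher and 3 lower at 1 µM (median -0.06), and 5 were lower at 4 µM (median -0.14). In RNA from whole cultures, less transcript per cell and fewer cells in the phase that makes it cannot be told apart.

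**Figure D5:**
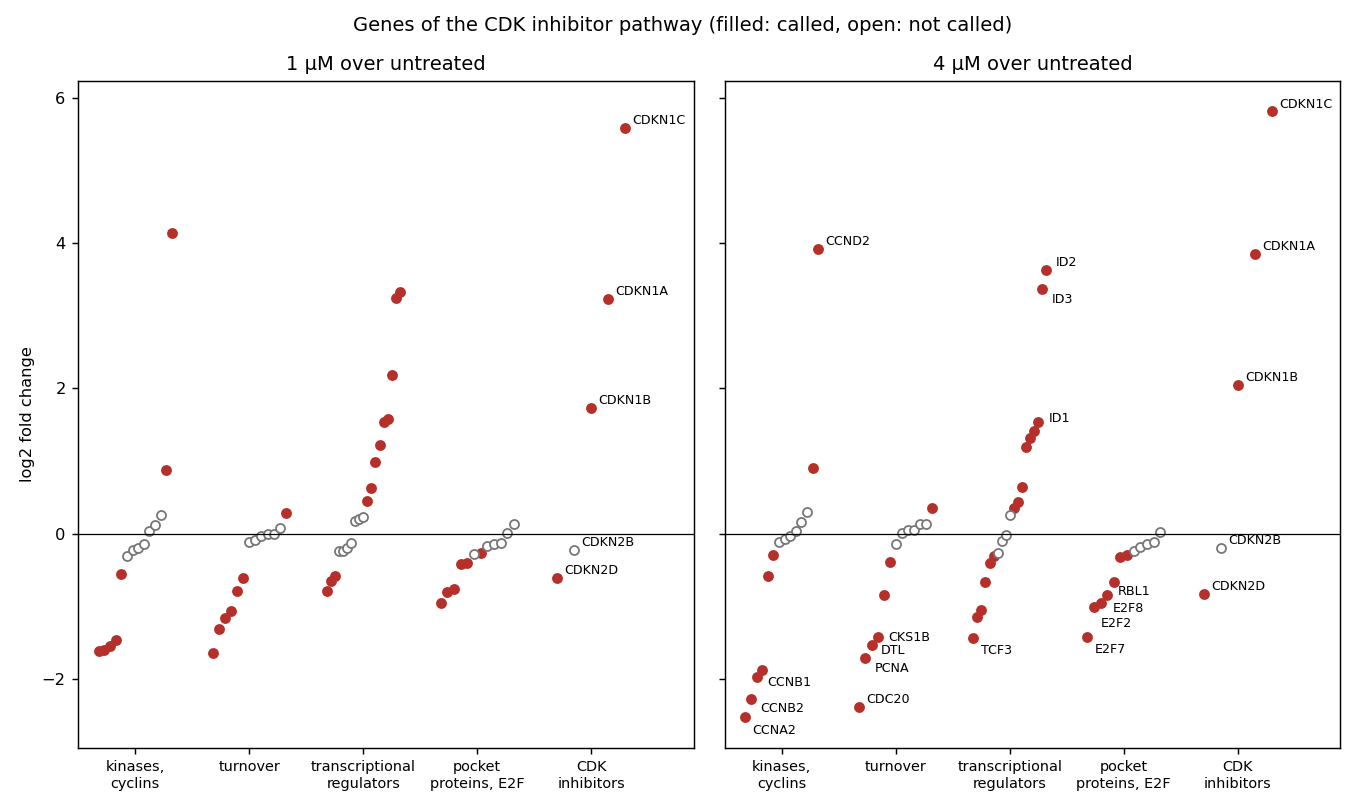
Log2 fold change over untreated cells at 1 µM (left) and 4 µM (right) for the tested genes of 4 lists around the CDK inhibitors and for the 5 tested CDK inhibitor genes. Each point is a gene, filled where it was called and open where it was not. The CDK inhibitors are labelled in both panels. From each list, the 4 called genes that changed most at 4 µM are labelled in the right panel only. CDKN1C at 5.81 lies above every list gene, and CCND2 and the ID genes stand apart from the falling cyclins and E2F genes.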

How the data were processed

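RNA of 12 PANC-1 samples was measured on an Illumina bead array. The intensity values deposited by the authors are on a linear scale, and GenomeStudio is named in the submitters' processing notes. Its version is not given in the sources used here. Tested on the file, intensities at the same rank differed by at most 1.65% between arrays, so they had been quantile-normalized. A second table has 24 columns whose names match no sample label, and these were not used.

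Groups and replicate numbers came from the sample titles. The treatment notes print the lower dose with a unit of volume. Probes were named through the platform annotation supplied, with symbols updated by gene ID, and 30113 of 47323 probes had 1 gene, 8 several and 17202 none. Background was the mode of all intensities (99.35) with the SD of their lower side (14.7), and its 95th percentile, 123.5, was the threshold. A probe above it on at least 4 of 12 arrays was kept (24357 probes), and the brightest of a gene's kept probes by its mean over all arrays stood for the gene. Probes of no single gene stayed as features. Before log2, intensities were background-corrected by normexp, fitted to the signals without control probes (offset 50).

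Group means were fitted over all 12 arrays with limma 3.58.1 in R 4.3.3 (9 residual degrees of freedom), two-sided, with Benjamini-Hochberg adjustment over 19744 features. Probes that do not stand for their gene were read from the same fit on all kept probes. Undetected probes and differences between probes were compared by exact permutation. A probe below background on every array of 1 group has a fold as a bound against the threshold. The number of arrays limits the precision. Scripts were tested on simulated data. The closing section gives the alternatives tried. The members and gene lists were chosen with earlier results of these data known, and named genes are the members, the 3 most alike genes of each called member, the nearest 2 genes on each side, and, from each list, up to 4 called genes that changed most at 4 µM. CCND1, CCNE1, CDK1, CDK2, CDK4, CDK6, DDB1, SKP2 and RB1 were named after their values were seen.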

Additional observations from a re-analysis of the deposited data

Results flagged for a closer look

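Each probe's 4 values in each group were checked for a value far from the others, which chance alone gives in about 1 of 20 groups. Of 39 groups, 2 held such a value, and both were CDKN2A probes below the level needed for a fit. The probe ILMN_1717714 read 130.2 on 1 µM array 3, above the other 1 µM arrays, with a gap of 0.979 of the group's range. The probe ILMN_1744295 read 80.12 on untreated array 3, below the other untreated arrays, with a gap of 0.948 of the range.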

How the results depend on the processing

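The 5 fold changes and the counts of called features were recomputed under 10 other settings and without each of the 12 arrays. Of 321 fold changes of CDK inhibitor genes, 316 kept their direction and their side of the threshold, or stayed uncalled. The exceptions were all CDKN1B at 4 µM over 1 µM, which passed with no background correction (0.32, adjusted p = 0.0473), with probes above background on all 12 arrays (0.32, adjusted p = 0.0429), with array weights (0.33, adjusted p = 0.0466), without 1 µM replicate 3 (0.37, adjusted p = 0.0488) and without 4 µM replicate 1 (0.38, adjusted p = 0.0356), in a range of 0.26 to 0.38 over the arrays left out. The cause was not tested. Called features between the doses numbered 1715 and ran from 1108 to 1867 over the arrays left out, with 1108 without 1 µM replicate 4, 1117 without 4 µM replicate 2 and 1122 without 4 µM replicate 3. Those at 1 µM numbered 7421 (6467 to 9233 over the other settings) and at 4 µM 7779 (6707 to 9759). With a replicate block the counts were 7511, 7855 and 1808, and no call of a CDK inhibitor changed. No pairing by replicate number was detected. Residuals of the 12 pairs that share a number correlated at -0.067 to 0.150. An array's best match had its own number in 3 of 12 cases. Samples that share a number could still have been grown or handled together. CDKN1C and CDKN2B had no value with probes above background on all arrays. A background level taken from log2 intensities, a setting chosen after seeing the data, gave a threshold of 128.6, under which CDKN2B was above background on 3 arrays and was not tested. Signal over background limits what can be said of CDKN2A and CDKN2B.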
